A study of Rattus norvegicus with 10 samples.

Results

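The miR-29 family comprised 7 of the 679 rat miRNA probes on the array, chosen by name. Of these, 3 detect the guide strands miR-29a, miR-29b and miR-29c (rno-miR-29a, rno-miR-29b and rno-miR-29c in full, for the rat), and 4 detect the opposite strands miR-29a*, miR-29b-1*, miR-29b-2* and miR-29c*. All 7 probes were found in the data. miRNAs of the medial prefrontal cortex (mPFC) were measured in 5 rats after chronic morphine and in 5 rats after saline, each on an array of its own, to look for miRNAs that change with the drug. All 10 animals were wild-type male Sprague Dawley rats aged 2 months. The morphine rats were injected intraperitoneally on 5 days, with 2 injections a day. Each injection held 10 mg/kg on day 1, 20 mg/kg on day 2, 30 mg/kg on day 3 and 40 mg/kg on days 4 and 5. The saline rats were injected on the same schedule. The RNA came from whole tissue, so that every cell type of the mPFC could contribute to a value.

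A miRNA is cut from a hairpin-shaped precursor as a duplex. The guide strand is kept by an Argonaute protein and pairs with messenger RNAs through its seed, the bases near its 5′ end, while most copies of the opposite strand, marked with a star, are lost. The miR-29 guide strands repress collagens and other extracellular matrix genes and the DNA methyltransferases Dnmt3a and Dnmt3b, and TGF-beta lowers them in fibrosis. In rodent brain they rise strongly after birth, are enriched in astrocytes and are also present in mature neurons, where in mice they hold back genes of apoptosis. miR-29a and miR-29b come from 1 precursor transcript, and a second copy of miR-29b comes from another together with miR-29c.

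The sequences of the 3 guide strands are shown because the probes that respond differently here detect RNAs that differ by few bases. Capitals mark the seed, bases 2 to 8, which all 3 share. The sequences are those of RefSeq on the GRCr8 build, where all 7 members were matched. The probe sequences were not used here.
miR-29a: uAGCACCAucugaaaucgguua
miR-29b: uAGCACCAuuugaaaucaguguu
miR-29c: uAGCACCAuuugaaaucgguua
The seed AGCACCA occurred in 3 of 693 rat mature miRNA names (0.433%), which are these 3. In the tokens that follow, the base of the first-named miRNA comes first, the position is counted from 1 at the 5′ end, and the base of the second-named miRNA comes last. miR-29a and miR-29c shared 21 of 22 bases, with the single substitution C10U. miR-29b and miR-29c shared 19 of the 22 bases compared, with the substitutions A18G, G21U and U22A, and miR-29b carried 1 extra base at its 3′ end. miR-29a and miR-29b shared 18, with C10U, G18A, U21G and A22U. The 3′ end of miR-29b reads AGUGUU, a motif linked to import into the nucleus in human cells. It was found anywhere in 8 of the 693 mature names (1.15%) and at the 3′ end in 2 (0.289%), with no other motif searched.

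The opposite strands share no seed with the guides or with each other, and each of their seeds occurred in 1 mature name. They are shown because only 1 of the 4 gave a signal on every array. The star names of the array were matched to the names with 5p in RefSeq.
miR-29a*: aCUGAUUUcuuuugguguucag
miR-29b-1*: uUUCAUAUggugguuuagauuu
miR-29b-2*: cUGGUUUCacaugguggcuuag
miR-29c*: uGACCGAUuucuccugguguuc
The 4 precursors lie in 2 pairs, each annotated as miRNA genes. Mir29a (chr4:60617955-60618042) and Mir29b1 (chr4:60618334-60618414) are on the minus strand, 291 bases apart. Mir29b2 (chr13:109098831-109098911) and Mir29c (chr13:109099359-109099446) are on the plus strand, 447 bases apart. The mature miR-29b sequence is identical from both of its genes, so that its probe cannot tell them apart.

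Values are background-subtracted fluorescence in arbitrary units. The 4 spots of a probe were averaged, and each array was scaled by the median of 120 probes for rat miRNAs, those at 30 or above on all 10 arrays. Levels of different probes are not compared, as probes bind with different strength. Tests used log2 values with a floor of 30 in limma, a linear model that pools variance information over probes. They covered 301 probes for rat miRNAs whose intensity before scaling was 30 or higher on 5 arrays or more, with Benjamini-Hochberg adjustment over all 301. Of the 7 members, 4 passed this filter (miR-29a, miR-29b, miR-29c and miR-29a*).

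The arrays differed in more than the family. The median local background was 63 to 141 on morphine arrays and 84 to 348 on saline arrays, and 260 to 419 of the rat miRNA probes reached 30 on morphine arrays, against 180 to 281 on saline arrays. No pair of arrays within a group held equal values, but morphine replicates 3 and 5 were closer (r = 0.971 across the 301 probes, which are not independent) than the other pairs of morphine arrays (0.628 to 0.852), and the closest pair of saline arrays gave 0.932. The labelled tissue was checked against 10 neuronal miRNAs, among them miR-124 and miR-9. Their summed level was 35581 to 117976 on morphine arrays and 606 to 1763 on saline arrays. Negative values were left out of this and of every later summed level. The sum rests mostly on miR-124, whose mean was 51449 on morphine arrays and 956 on saline arrays. No saline array brought miR-9, miR-128, miR-129, miR-132, miR-137, miR-153 or miR-218a, 7 of the 10, to 30. The neuronal sums did not overlap between the groups, and their part in the results on miR-29 was not tested. No source used here gives the slide or the scan date, so treatment and array processing cannot be told apart. Nor can differences between the groups in the dissected tissue or in the RNA be told apart from treatment.

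miR-29c and miR-29b rose in the morphine group, while miR-29a and miR-29a* did not pass the test. The difference was 15.5-fold for miR-29c, without overlap between the groups, and 4.72-fold for miR-29b, with overlap on 1 morphine array. Among all 301 tested probes, 98 were called higher in the morphine group (32.6%) and 35 lower (11.6%), and the median log2 difference of all of them was 0.45. The split depends on the scaling, with 67 higher and 63 lower after quantile normalization and 55 higher and 57 lower after cyclic loess. The 2 members called higher out of 4 tested are therefore read against a background in which 32.6% of tested probes were called higher. In whole tissue, fewer cells of a type and less RNA per cell cannot be told apart.

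rno-miR-29c gave scaled intensities of 2361, 717, 4826, 767 and 5516 on morphine arrays 1 to 5, against 138, 322, 122, 204 and 35.4 on saline arrays 1 to 5. Every morphine array lay above every saline array, as was the case for 21.3% of the tested probes (8.31% lay below without overlap). The lowest saline value, that of replicate 5, was just above the detection minimum of 30. The means were 2837 ± 2244 in morphine rats and 164 ± 107 in saline rats (SD, n = 5 each). The log2 difference was 3.95 (SE 0.74, 95% interval 2.36 to 5.55), which corresponds to a fold change of 15.5 (interval 5.12 to 46.7), with an adjusted p of 0.000980 in limma. The call held with any single array left out (log2 difference 3.36 to 4.37). With the methods' t-test on linear values the unadjusted p was 0.0288, and the adjusted p of 0.0849 did not pass. The study's methods name no such adjustment. The size depended on background and scaling, as the log2 difference was 2.71 from a baseline of negative-control probes, 3.00 after normexp background correction and 3.07 after quantile normalization, each past the test. miR-29c ranked 28 of 301 by the log2 difference, counted from the largest rise, and 40 of 301 by p-value. Of the guide strands it is the one encoded beside the second copy of miR-29b.

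rno-miR-29b gave scaled intensities of 8495, 2866, 8702, 659 and 10427 on morphine arrays 1 to 5, against 1194, 680, 598, 1303 and 982 on saline arrays 1 to 5. On 4 of the 5 morphine arrays the value lay above all saline arrays, and on replicate 4 it lay within the saline range. The means were 6230 ± 4219 in morphine rats and 952 ± 309 in saline rats (SD, n = 5 each). The log2 difference was 2.24 (SE 0.71, 95% interval 0.70 to 3.77), a fold change of 4.72 (interval 1.63 to 13.7), with an adjusted p of 0.0224 in limma. This call depended on single arrays. Without morphine replicate 1, 3 or 5 the log2 difference was 1.99, 1.98 and 1.92, with adjusted p-values of 0.0560, 0.0590 and 0.0603 in limma, and without saline replicate 3 it was 2.09, with an adjusted p of 0.0507. Without any filter, over all 679 probes, of which 11.0% were called higher and 3.68% lower, the adjusted p of miR-29b was 0.0932, while miR-29c kept its call with an adjusted p of 0.0127.

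rno-miR-29a, which differs from miR-29c by C10U only, gave 4676, 502, 7233, 882 and 8654 on morphine arrays 1 to 5, against 1264, 2601, 803, 1730 and 2639 on saline arrays 1 to 5. The morphine values spanned the saline range, with 3 arrays above all saline arrays and 1 below all of them. The means were 4389 ± 3666 in morphine rats and 1808 ± 811 in saline rats (SD, n = 5 each). The log2 difference of 0.69 (SE 0.79, 95% interval -1.02 to 2.39) did not pass the test, with an adjusted p of 0.527 in limma. The interval covers fold changes of 0.494 to 5.24, so that a rise as large as the one fitted for miR-29b is not outside it.

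miR-29a*, cut from the same precursor as miR-29a, gave 134, 817, 379, 710 and 601 on morphine arrays 1 to 5, against 1023, 555, 1553, 237 and 288 on saline arrays 1 to 5. The groups overlapped, with means of 528 ± 274 in morphine rats and 731 ± 555 in saline rats (SD, n = 5 each). The log2 difference was -0.35 (SE 0.66, 95% interval -1.77 to 1.06), with an adjusted p of 0.684 in limma, and it changed sign under 3 of 27 other ways of processing.

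**Figure D1:**
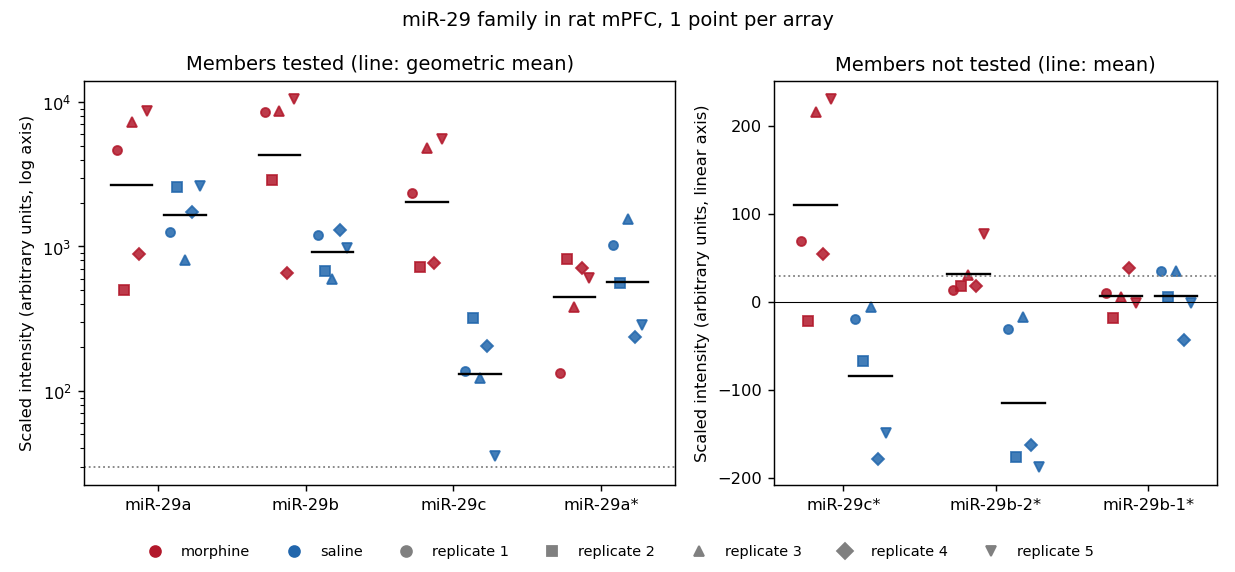
Scaled intensity of each miR-29 probe on each array (arbitrary units; log axis for the 4 tested members at left, linear axis for the 3 others at right), with morphine in red and saline in blue, 1 symbol shape per replicate number, solid lines at the geometric mean (left) or mean (right) and a dotted line at 30. miR-29c separates the groups completely, miR-29b on all but morphine replicate 4, and miR-29a and miR-29a* overlap.

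The morphine arrays fell into an order shared by the guides. Replicates 1, 3 and 5 were the 3 highest of all 10 arrays for miR-29a, miR-29b and miR-29c, and replicates 2 and 4 were lower for all 3. For miR-29a* this order did not hold, as replicate 1 was the lowest of the morphine arrays and replicate 2 the highest. The coefficient of variation over the 5 morphine arrays was 83.5% for miR-29a, 67.7% for miR-29b and 79.1% for miR-29c, against 44.9%, 32.5% and 64.9% over the saline arrays for the same 3 probes.

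**Figure D2:**
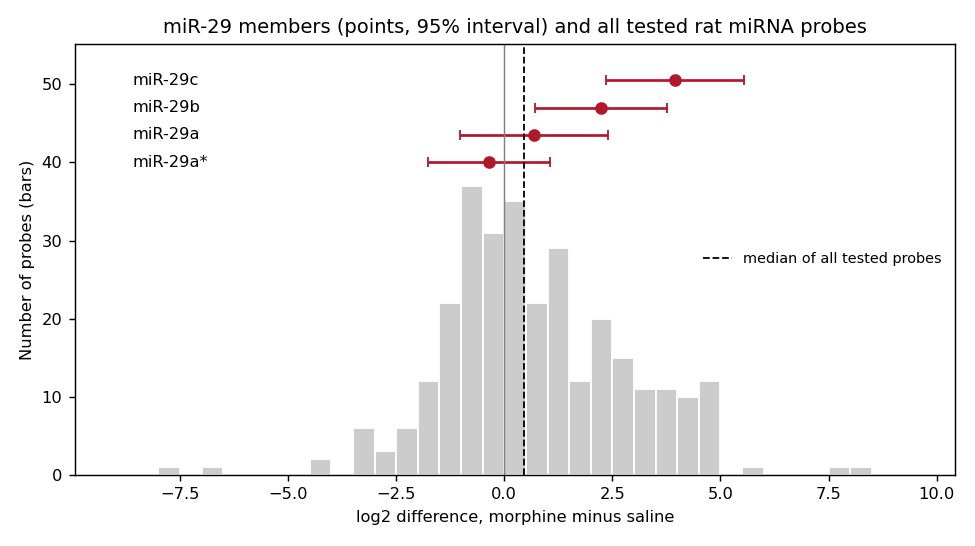
Distribution of the log2 difference, morphine minus saline, over the 301 tested rat miRNA probes (bars, number of probes), with the 4 tested miR-29 members as points with 95% intervals above it. miR-29c (3.95) and miR-29b (2.24) lie right of the median of all probes (0.45, dashed line) with intervals above 0, and the intervals of miR-29a and miR-29a* include 0.

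Whether 2 members responded unequally was tested on the log2 difference between their probes on the same array, which does not depend on the scaling of that array. There were 6 pairs, each compared by a two-sided exact permutation test over the 10 arrays, where 0.00794 is the smallest p that 5 against 5 arrays allow. The level of such a difference carries the unequal binding of the 2 probes, so only its shift between the groups is read. Pairs outside the family were not compared, so the share of all pairs that shift or separate is not known. Among single tested probes, 32.6% were called higher and 11.6% lower, so unequal shifts are not read as particular to the family.

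The probes of miR-29a and miR-29c, which target RNAs 1 base apart, responded unequally. miR-29a minus miR-29c was 0.38 ± 0.57 on morphine arrays, with a range of -0.51 to 0.99, and 3.65 ± 1.45 on saline arrays, with a range of 2.72 to 6.22 (SD, n = 5 each). The groups did not overlap, and the shift was -3.27 (SE 0.70, exact permutation p = 0.00794, adjusted over the 6 pairs 0.0238). The shift depended on the background, at -1.60 after normexp background correction and -2.38 from the negative-control baseline (adjusted exact p = 0.0476 for both). How far the 1-base difference lets each probe bind the other RNA was not tested.

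miR-29a* minus miR-29c also separated the groups, with -2.19 ± 2.06 on morphine arrays and 2.12 ± 1.52 on saline arrays (SD, n = 5 each). The shift was -4.31 (SE 1.14, exact permutation p = 0.00794, adjusted 0.0238). It was -2.91 after normexp (adjusted exact p = 0.0476), and it lost its adjusted call without saline replicate 1, 3 or 5, with shifts of -4.11, -3.92 and -4.08 and adjusted exact p-values of 0.0635, 0.0714 and 0.0952. miR-29a minus miR-29b was -0.70 on morphine arrays and 0.86 on saline arrays, a shift of -1.55 (SE 0.61, exact permutation p = 0.0238, adjusted 0.0476). This last call ended in 9 of the 10 fits with 1 array left out, with shifts from -1.83 to -1.10.

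The other pairs did not pass after adjustment. miR-29b minus miR-29c shifted by -1.71 (SE 0.72, exact permutation p = 0.0397, adjusted 0.0595), so that the larger log2 difference of miR-29c over miR-29b is not established by this test, although the shift reached -2.14 without saline replicate 2 (adjusted exact p = 0.0238). It was -0.32 after normexp (adjusted exact p = 0.476) and -0.93 from the negative-control baseline (adjusted exact p = 0.0857). miR-29a* minus miR-29b shifted by -2.59 (SE 1.27, exact permutation p = 0.0952, adjusted 0.114). Without morphine replicate 4 it reached -3.44, with an adjusted exact p of 0.0476. The strands of the same precursor, miR-29a minus miR-29a*, gave 2.57 ± 2.59 on morphine arrays and 1.53 ± 1.78 on saline arrays (SD, n = 5 each), a shift of 1.04 (SE 1.41, exact permutation p = 0.460).

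**Figure D3:**
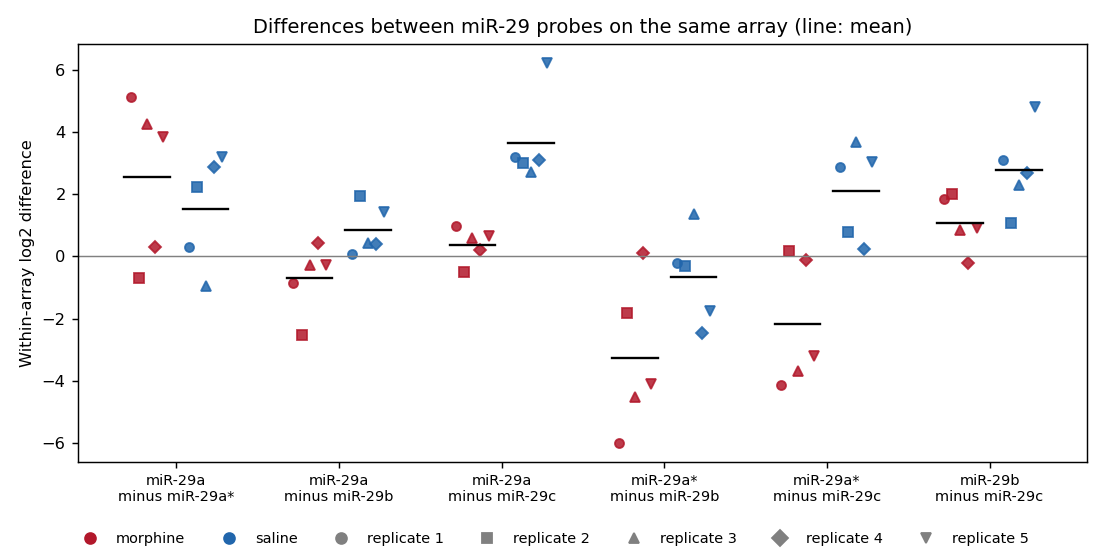
Log2 difference between the probes of 2 members on the same array, for the 6 pairs of tested members, with morphine in red left of saline in blue and the group mean as a line. miR-29a minus miR-29c (morphine -0.51 to 0.99, saline 2.72 to 6.22) and miR-29a* minus miR-29c are the 2 pairs whose groups do not overlap.

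The 3 opposite strands that were not tested were dim. miR-29c*, from the same precursor as miR-29c, gave 68.8, -21.9, 216, 54.9 and 230 on morphine arrays 1 to 5, against -19.8, -67.1, -5.43, -178 and -149 on saline arrays 1 to 5. Values below 0 mean that the spots were darker than the background around them. It reached 30 on 4 of 5 morphine arrays and on 0 of 5 saline arrays. The mean log2 value of the morphine arrays lay 2.69-fold above the lowest signal counted as detected on each saline array. Morphine replicate 2, at -21.9, entered this mean at the floor of 30, so 2.69-fold is not a lower bound on the difference. In the fit without a filter its adjusted p was 0.105 in limma.

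This comparison depends on the local background that was subtracted. Set against the median of 7 negative-control probes on the same array, miR-29c* was 30.6 to 273 on morphine arrays (mean 144 ± 114) and 3.11 to 67.6 on saline arrays (mean 30.8 ± 24.1, SD, n = 5 each), and the groups overlapped. Morphine replicates 1, 3 and 5, the highest for the guides, were the highest for miR-29c* as well.

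Before scaling, miR-29b-2* reached 30 on 1 of 5 morphine arrays and on 0 of 5 saline arrays. Its morphine mean log2 value lay no more than 1.10-fold above the lowest signal counted as detected on saline arrays. Its values were 13.5, 18.03, 30.3, 17.9 and 77.1 on morphine arrays 1 to 5, against -31.0, -176, -16.8, -162 and -187 on saline arrays 1 to 5. Above the negative controls it was 9.79 to 120 on morphine arrays and -70.3 to 29.6 on saline arrays. The strand of the other miR-29b gene, miR-29b-1*, was at the detection minimum in both groups, with -17.8 to 38.3 on morphine arrays and -43.3 to 35.4 on saline arrays. It reached 30 on 1 morphine array and 2 saline arrays. Above the negative controls it was 30.2 to 57.4 on morphine arrays and 62.3 to 215 on saline arrays, the opposite side from miR-29c* and miR-29b-2* on the same baseline. No direction is read from these 2 dim probes.

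Technical spread was judged from the 4 spots of each probe, of which 2 lie on each side of the slide (A, the blocks with the lower numbers, and B, those with the higher numbers). For miR-29c the median coefficient of variation of the spots was 14.4% on morphine arrays (6.01 to 55.8%) and 32.9% on saline arrays (7.77 to 337%). For miR-29b it was 19.8% on morphine arrays and 32.8% on saline arrays, and for miR-29a 6.32% and 36.0%. miR-29a* varied most on morphine arrays, with 70.6%, against 39.1% on saline arrays. By these medians the saline spots of the 3 guides spread more in relative terms than their morphine spots.

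The 2 sides of a slide could differ widely. On morphine replicate 2 the means of sides A and B of miR-29b were 5765 and 1550, and those of miR-29a* 286 and 1799. On saline replicate 4 those of miR-29a were 358 and 2422, and on saline replicate 5 those of miR-29c were 105 and -44. Over all probes, the median absolute log2 ratio of the sides was 0.212 to 0.821 on morphine arrays and 0.432 to 0.868 on saline arrays. With side A alone, miR-29c and miR-29b kept their calls. With side B alone miR-29c kept its call, and miR-29b, with a log2 difference of 2.22, had an adjusted p of 0.0652 in limma.

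**Figure D4:**
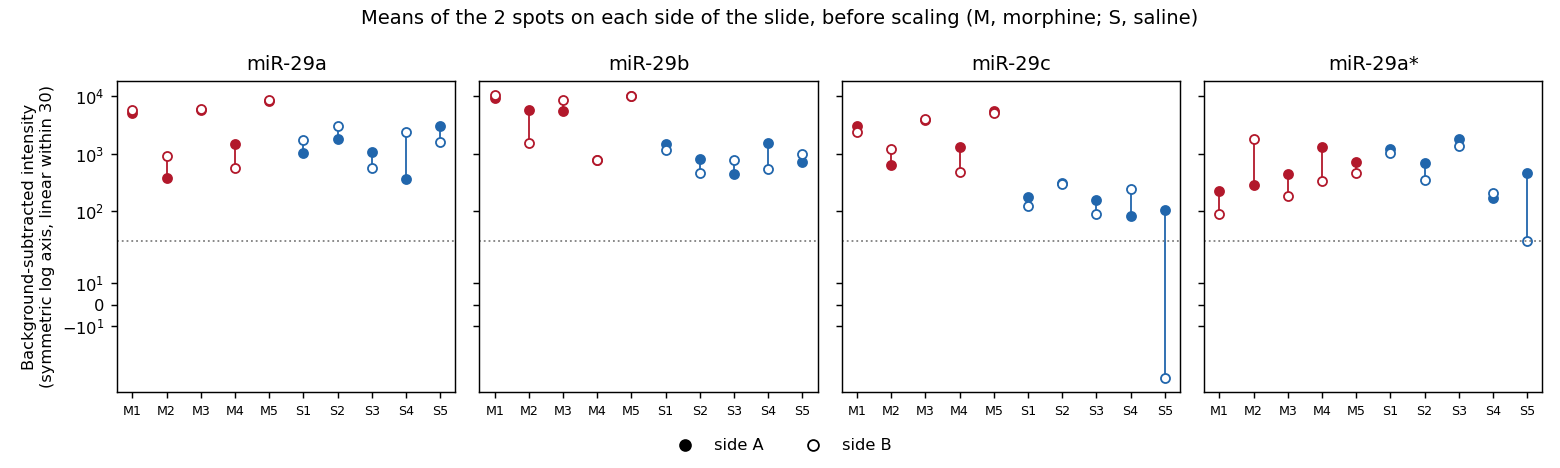
Mean of the 2 spots on side A (filled) and on side B (open) of each slide for the 4 tested members, before scaling, on a symmetric log axis that is linear within 30, with morphine arrays (M1 to M5) left of saline arrays (S1 to S5). For miR-29c every side of a morphine array (476 or more) lay above every side of a saline array (307 or less), and on saline replicate 5 side B fell below 0.

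The miRNAs whose values over the 10 arrays most resembled those of a guide strand were found by the root-mean-square difference of the log2 values, each centred on its probe's mean, among 297 tested probes outside the family. For miR-29c they were miR-30e (0.659), miR-33 (0.751) and the probe of miR-129-1* and miR-129-2* (0.794), against a median of 2.28 over the 297 probes. These 3 probes were themselves called higher in the morphine group, with log2 differences of 4.35, 4.47 and 3.64. The last of them reached 30 on no saline array, so it passed the filter through the morphine group only. For miR-29b they were miR-181c (0.685), miR-126* (0.703) and miR-466b (0.716), against a median of 1.77. Of these, miR-126*, a strand of the endothelial miR-126 precursor, and miR-466b were called higher, with log2 differences of 3.27 (adjusted p = 0.00295 in limma) and 1.62 (adjusted p = 0.0487). On saline arrays miR-126* and miR-181c never reached 30, so they passed the filter through the morphine group only. For miR-29a they were miR-140* (0.703), miR-181c (0.743) and miR-103 (0.818), none of which passed the test, against a median of 1.69. The limit on miR-181c holds here as well. Within the family miR-29a and miR-29b were nearest to each other (1.16), miR-29b and miR-29c next (1.34) and miR-29a and miR-29c farther apart (1.91).

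Related miRNAs moved as follows, each list being set beside the median of 0.45 and the 32.6% and 11.6% called over all tested probes. Of the 9 neuronal miRNAs tested, 8 were higher and none lower (median log2 difference 4.72), and miR-9 had the smallest p (log2 difference 8.39, adjusted p = 9.31e-08). However, miR-9, miR-128, miR-132, miR-137, miR-153 and miR-218a reached 30 on 5 morphine arrays and 0 saline arrays. They passed the filter through the morphine group only and could not come out lower. Their saline values all lie at the floor of 30, on which their log2 differences and p-values depend. Of the other 4 miRNAs enriched in astrocytes, miR-26a (3.55, adjusted p = 0.00119) and miR-26b (2.96) were higher, whereas miR-23a (-0.01) and miR-23b (-0.17) did not pass, and their summed level was 2093 to 9497 on morphine arrays and 1896 to 8153 on saline arrays. Of the 2 oligodendrocyte miRNAs, miR-338 was tested and was higher (3.68, adjusted p = 0.000486), and both were below 30 on all saline arrays. miR-338 thus passed the filter through the morphine group only and could not come out lower.

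The vessel wall and fibroblast list ran the other way, with 4 of 6 lower, none higher and a median of -2.98. miR-199a-5p had the smallest p there (-7.63, adjusted p = 9.31e-08), and the summed level of the list was 1471 to 5101 on morphine arrays and 11534 to 42664 on saline arrays. miR-199a-3p was below 30 on all morphine arrays, so it passed the filter through the saline group only and could not come out higher. Of 7 blood and microglia miRNAs 6 were matched by name, and all 5 that were tested were higher, with a median of 2.83 and miR-150 first by p (4.90, adjusted p = 3.81e-05). However, miR-144, miR-142-3p and miR-142-5p reached 30 on 5 morphine arrays and 0 saline arrays. They passed the filter through the morphine group only and could not come out lower. miR-451 reached 30 on 5 morphine arrays and 1 saline array, and miR-223, which was not tested, on 1 morphine array. Their summed level, with negative values left out, was 1421 to 8547 on morphine arrays and 28.3 to 221 on saline arrays. Of the 6, 4 did not reach 30 on any saline array.

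TGF-beta raises a set of miRNAs in fibrosis while it lowers miR-29. The list of 7 such miRNAs adds only miR-192, which was not tested, to the 6 of the vessel wall list, miR-21 among them. Its counts (4 of 6 lower in the morphine group, none higher, median -2.98) therefore repeat that list and its limit on miR-199a-3p. Of 8 miRNAs known to rise in rodent brain after birth, 7 were higher and none lower (median 3.75, miR-128 first by p with a log2 difference of 7.67). Of these, miR-128 passed the filter through the morphine group only. The list includes the 3 miR-29 guides, and miR-29a was the 1 that did not pass. The lists overlap with each other and with the family, their markers moved together with the treatment groups, and the part of cell makeup in the miR-29 values was not tested.

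**Figure D5:**
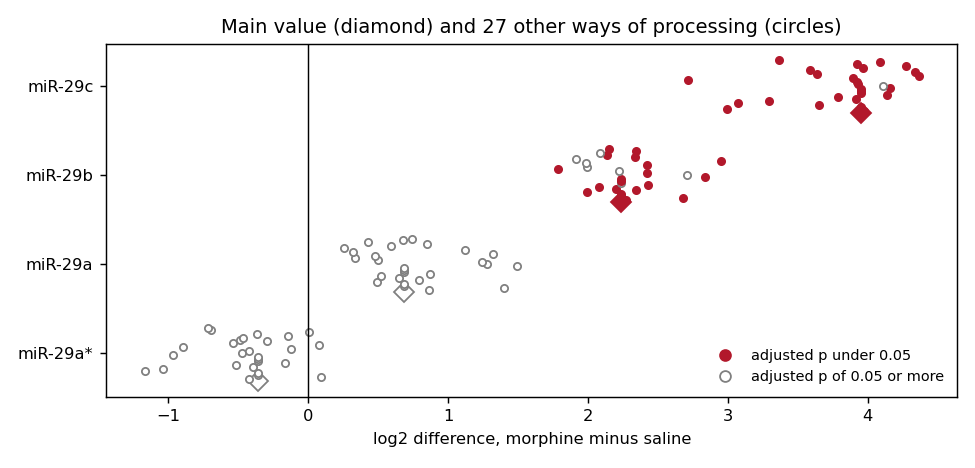
Log2 difference, morphine minus saline, of the 4 tested members as reported (diamonds) and under 27 other ways of processing the same arrays (circles), filled where the adjusted p was under 0.05. miR-29c stayed between 2.71 and 4.37 and lost its call once, miR-29b stayed between 1.79 and 2.95 and lost it 7 times, miR-29a stayed between 0.26 and 1.50 without a call, and miR-29a* lay on both sides of 0.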

How the data were processed

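The authors labelled each rat's total mPFC RNA with the dye Hy3, ran it on a miRCURY LNA miRNA array, scanned it on an Axon GenePix scanner and read the spots with GenePix Pro. The deposited spot file gives, for the 4 spots of each probe, linear intensities before and after subtraction of the local background, with no scaling between arrays. A second deposited table gives the median of these spots (35410 of 35410 values equal within 1e-06 intensity units) and was used only as an alternative. How the local background was estimated is not given in the sources used here. The study's own normalisation, over miRNAs at 30 or more in all samples, was rebuilt from the spots.

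The spot means were divided by the array's median over 120 probes and brought back to intensity units with the geometric mean of the 10 factors, which were 819 to 1281 for morphine arrays and 807 to 1101 for saline arrays. Values were set to at least 30, log2-transformed and tested two-sided by lmFit and eBayes (limma 3.58.1, R 4.3.3), with Benjamini-Hochberg adjustment over 301 probes and a threshold of 0.05. A fold change of a dim probe depends on the floor of 30. Within-array differences were compared by exact permutation over 252 splits in R. The 95% intervals were computed with Python 3.11.15 and SciPy 1.17.1. Each rat had its own array, so the p-values measure the spread between rats and the error of their arrays together. They treat morphine replicates 3 and 5, the closest morphine pair (r = 0.971), as independent rats. The precision of the p-values is limited by the number of arrays.

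Named were all members, for each guide the 3 probes nearest in pattern, and of each list its counts and the member with the smallest p in each direction. The remaining list members named were chosen after their values were seen. The members and lists were chosen with earlier results of these data known. The replicate numbers of morphine and saline rats were taken as label numbers only, as the labels name no pairs. Same-numbered arrays did not deviate together, as the check in the closing section shows, but this cannot exclude a pairing. The 27 alternatives cover background, scaling, filter, floor, spots, weights, the test, a block by replicate number and the omission of each array in turn.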

Additional observations from a re-analysis of the deposited data

Results flagged for a closer look

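In 26 sets of 5 values, 1 for each member or pair and group, a value far from the other 4 was sought by Dixon's criterion, which chance meets in about 1 of 20 sets, and 2 sets met it. miR-29b-2* had a scaled intensity of 77.1 on morphine replicate 5, against 13.5 to 30.3 on the other morphine arrays (gap over range 0.735, critical value 0.71). This is the only morphine array on which the probe reached the detection minimum before scaling. The log2 difference miR-29a minus miR-29c was 6.22 on saline replicate 5, and the lowest of the saline arrays gave 2.72 (gap over range 0.864). On that array miR-29c was just above the detection minimum, the means of its spots on the 2 sides of the slide were 105 and -44, and the median local background was 348. After scaling, the 7 negative-control probes there had a median of -216 and a highest value of 41.8, with miR-29c at 35.4. Without saline replicate 5 the shift of miR-29a minus miR-29c between morphine and saline arrays was -2.62 (exact permutation p = 0.00794, adjusted 0.0476).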

How the results depend on the processing

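The rise of miR-29c passed the test under 26 of 27 alternatives (log2 difference 2.71, from the negative-control baseline, to 4.37, and 3.36 to 4.37 with 1 array left out). With the methods' t-test on linear values it was 4.11 with an adjusted p of 0.0849, and miR-29b was 2.71 with an adjusted p of 0.0763 (adjusted p over the alternatives 6.70e-05 to 0.0849 for miR-29c and 0.000701 to 0.0932 for miR-29b). The unadjusted p of this t-test was 0.0288 for miR-29c and 0.0236 for miR-29b. Both thus met a cut of over 2-fold at an unadjusted p under 0.05, and the study's methods name no adjustment. miR-29b passed under 20 of 27. It was 2.24 without a filter and 2.22 with side B of the slide, neither past the threshold, and 1.92 to 2.95 with 1 array left out, where it passed in 6 of 10 fits. miR-29a passed under none (0.26 to 1.50, and 0.26 to 1.32 with 1 array left out, adjusted p 0.0642 to 0.806). The array weights behind its largest value did not fully converge. miR-29a* also passed under none and changed sign under 3 alternatives, with 0.089 after normexp background correction, 0.079 without morphine replicate 1 and 0.01 without saline replicate 3 (-0.72 to 0.08 with 1 array left out).

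miR-29a minus miR-29c passed under 17 of 18 alternatives. It shifted by -1.60 with normexp, by -2.38 from the negative-control baseline and by -3.50 to -2.62 with 1 array left out. miR-29a minus miR-29b passed under 3 of 18. Its shift was -1.41 with the median of the spots, -1.28 with normexp, -1.18 with side A of the slide, -1.72 with side B, -1.45 from the negative-control baseline and -1.83 to -1.10 with 1 array left out. miR-29a* minus miR-29c passed under 13 of 18, with -4.05 from side B, -2.91 with normexp and -4.90 to -3.82 with 1 array left out. With 1 array left out miR-29a* minus miR-29b shifted by -3.44 to -1.91, miR-29b minus miR-29c by -2.14 to -1.21 and miR-29a minus miR-29a* by 0.40 to 1.86. miR-29b minus miR-29c was -0.32 with normexp and -0.93 from the negative-control baseline. The slide sides and the negative-control baseline were chosen after seeing the data.

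The labels do not say whether the replicate number pairs the rats. The deviations of same-numbered arrays from their group means correlated at 0.0227, 0.0543, -0.170, -0.404 and 0.0400. No shared deviation was seen, which cannot exclude a pairing. With the replicate number as a block, miR-29b had an adjusted p of 0.0378 in limma, miR-29c of 0.00712, and 81 probes were called higher and 26 lower. In 5 pairs an exact sign-flip test cannot go below 0.0625, so the paired shifts of -3.27 (miR-29a minus miR-29c), -4.31 (miR-29a* minus miR-29c) and -1.55 (miR-29a minus miR-29b) could not pass.

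The 98 probes called higher and 35 lower became 67 and 63 with quantile normalization, 55 and 57 with cyclic loess, 114 and 150 with normexp, where all 679 probes passed the filter, and 92 and 81 from the negative-control baseline. They became 19 and 14 with 30 or more required on all arrays, where 120 probes were tested, 46 and 14 with the methods' t-test (96 and 30 over 2-fold at an unadjusted p under 0.05), and 17 lower with side B of the slide. They were 75 to 103 and 27 to 36 with 1 array left out. The median log2 difference of all probes, 0.45 here, was -0.43 with quantile normalization, -0.18 with cyclic loess, -0.14 with normexp and -0.26 from the negative-control baseline. Signal over background limits the opposite strands, of which 3 of 4 stayed near or below the detection minimum in saline rats.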
